A study of Homo sapiens with 8 samples.

Results

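Ribosome biogenesis factors are the nucleolar proteins that make ribosomal RNA and assemble it with ribosomal proteins into the small and large subunits. The set described here was a list of 55 human gene symbols, chosen with earlier results of these data known. A gene was taken from a probe set annotated to that symbol alone, and where a gene had several, the brightest on average was used. This gave 51 members of the 18417 genes measured. NOP56 and PPAN had only a probe set shared with other symbols, and no probe set listed here carried GNL3 or EBNA1BP2, so these 4 were not analysed. The 51 members fell into 6 roles: 7 in ribosomal RNA transcription by RNA polymerase I, 2 in the box C/D snoRNP core, 4 in the box H/ACA snoRNP core, 5 multifunctional nucleolar proteins, 19 in the small subunit processome and small subunit maturation, and 14 in large subunit assembly.

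RNA levels were read on Affymetrix Human Gene 1.0 ST arrays, 2 for each of 4 groups. They were the untreated subline A2780CP20, untreated A2780, A2780 given temsirolimus for 24 h and A2780 given temsirolimus for 48 h. A2780 is a human ovarian carcinoma cell line and A2780CP20 its cisplatin-resistant derivative. Temsirolimus, an ester of rapamycin, blocks mTORC1, a kinase complex that drives growth. Its stock was in DMSO, the labels give no dose, and they do not say whether the untreated cells received vehicle. All cells grew in RPMI medium with fetal serum. Whether replicates came from different cultures is not stated in the labels. The p-values therefore rest on the scatter among these arrays alone, which may be technical.

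In the nucleolus RNA polymerase I transcribes a long precursor of ribosomal RNA. Guided by small nucleolar RNAs, the box C/D and box H/ACA particles methylate and pseudouridylate it, the small subunit processome folds and cuts it, and further factors build the large subunit. MYC activates many of these genes, and mTORC1 promotes RNA polymerase I activity through the initiation factor encoded by RRN3.

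Because MYC binds the E-box, promoters of members were read for its letters, CACGTG, which are the same on both strands, and for the ETS core CCGGAA on both strands. RefSeq windows of assembly GRCh38.p14, from 250 bases before the gene start to 50 after, were matched for 43 of the 51 members. An E-box lay in 18 of these 43 windows (41.9%), against 7.43% of all 27305 windows and 8.88% of the 14237 windows of genes measured. An ETS core lay in 22 of 43 (51.2%), against 17.6% of all windows and 23.2% of those of genes measured. The letters of these motifs cannot overlap each other. The windows below run from 130 bases before the start to 20 bases from it onwards, 5′ to 3′ on the gene's strand. The E-box is in capitals in the first 5, which were chosen because CCDC86, RRP9 and PWP2 were among the largest rises on the arrays labelled 24 h while FBL and NOP10 did not pass there.
CCDC86, chr11:60841983-60842132, plus strand: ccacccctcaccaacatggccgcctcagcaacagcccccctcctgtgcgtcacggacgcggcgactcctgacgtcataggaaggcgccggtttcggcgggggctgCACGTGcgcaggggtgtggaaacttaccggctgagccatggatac
RRP9, chr3:51941885-51942034, minus strand: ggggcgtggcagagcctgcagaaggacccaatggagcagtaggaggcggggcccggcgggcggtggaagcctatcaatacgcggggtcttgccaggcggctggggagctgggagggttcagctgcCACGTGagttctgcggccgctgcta
PWP2, chr21:44107269-44107418, plus strand: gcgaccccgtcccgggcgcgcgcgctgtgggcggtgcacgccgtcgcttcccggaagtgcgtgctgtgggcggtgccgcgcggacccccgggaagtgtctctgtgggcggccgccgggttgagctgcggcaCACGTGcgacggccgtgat
FBL, chr19:39846360-39846509, minus strand: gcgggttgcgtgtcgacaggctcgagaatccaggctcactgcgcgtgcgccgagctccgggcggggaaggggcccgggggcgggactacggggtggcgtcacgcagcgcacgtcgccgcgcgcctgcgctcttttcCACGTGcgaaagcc
NOP10, chr15:34343117-34343266, minus strand: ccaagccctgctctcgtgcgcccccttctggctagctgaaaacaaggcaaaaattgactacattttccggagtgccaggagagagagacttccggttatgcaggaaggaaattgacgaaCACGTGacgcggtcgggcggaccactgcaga
In the next 3, of genes that were also among the 10 largest rises there, the ETS core is in capitals.
LYAR, chr4:4290135-4290284, minus strand: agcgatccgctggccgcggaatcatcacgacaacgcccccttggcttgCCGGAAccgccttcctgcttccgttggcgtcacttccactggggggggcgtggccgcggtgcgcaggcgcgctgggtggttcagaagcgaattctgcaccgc
WDR74, chr11:62839571-62839720, minus strand: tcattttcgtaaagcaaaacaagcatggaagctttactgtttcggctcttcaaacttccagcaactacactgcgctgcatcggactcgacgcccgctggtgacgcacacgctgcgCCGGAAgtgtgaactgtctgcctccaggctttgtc
NOC2L, chr1:959237-959386, minus strand: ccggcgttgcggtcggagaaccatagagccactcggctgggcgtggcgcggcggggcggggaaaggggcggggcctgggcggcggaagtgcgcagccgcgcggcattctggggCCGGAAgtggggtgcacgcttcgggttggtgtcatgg
The E-box begins 25 bases before the gene start in CCDC86 and 5 before it in RRP9, and lies just inside the transcribed sequence in PWP2 and FBL. Letters alone do not show that a factor binds there.

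The deposited values are log2 intensities. Array medians lay between 6.66 and 6.72, and every member lay at 8.53 or above on every array, so none was near the lower end of the scale. The arrays labelled 24 h stood apart: across genes they correlated with the other 6 arrays at 0.95 to 0.952, whereas the other groups correlated with each other at 0.979 to 0.996. Against untreated A2780, 1179 genes were called at a difference of at least 2-fold on them, from DKK1 at -7.59 to MUC15 at 7.3, whereas at 48 h there were 12 such genes. The files do not settle whether the label of these arrays is right, so they are called by it throughout. The epithelial genes KRT18 and EPCAM went with this split. KRT18 lay at 10.48 to 10.55 on the arrays labelled 24 h and at 6.95 to 7.61 on the other 6, and EPCAM at 7.67 to 7.8 and 5.26 to 5.68. KRT18 had 2 probe sets and so had EPCAM, and only the values of the brighter are given. Of 8 ovarian carcinoma and epithelial markers only KRT18 and EPCAM were called at 24 h. The summed level of the 8 was 62.37 to 62.94 there, against 57.59 to 58.22 in untreated A2780, and includes these 2 genes. Of the rest, KRT8 lay above the other 6 arrays, at 6.65 to 6.71 against 6.23 to 6.61. PAX8, WT1, MUC16, KRT7 and VIM overlapped the range of those 6 arrays. The lineage genes PAX8, WT1 and MUC16 lay near or below the array medians in every group. Of 9 markers of leukocytes, endothelium, liver, melanocytes and muscle, all between 3.84 and 7.51, only PTPRC was called on the arrays labelled 24 h. It lay there at 4.48 and 4.54, under the lowest lower quartile of any array (5.03). The part of this difference between arrays in the results on the arrays labelled 24 h was not tested. The A2780CP20 arrays differed most from each other: 11 of 51 members differed by over 0.3 between them, against 0 in each other group.

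Each difference below is between the mean log2 values of 2 groups, given ± its standard error in a limma fit to all genes and all 8 arrays (n = 2 arrays per group). Genes with a limma adjusted p under 0.05 are named as called. The comparisons with untreated A2780 share its 2 arrays, so their errors are linked. Where groups are said not to overlap, 2 arrays are set against 2, and the share of all genes free of overlap was not counted. Even HEATR1, at a difference of 0.02, was free of overlap on the arrays labelled 24 h against untreated A2780. Members given for the largest called changes were chosen for no overlap, so it adds nothing to their calls.

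**Figure D1:**
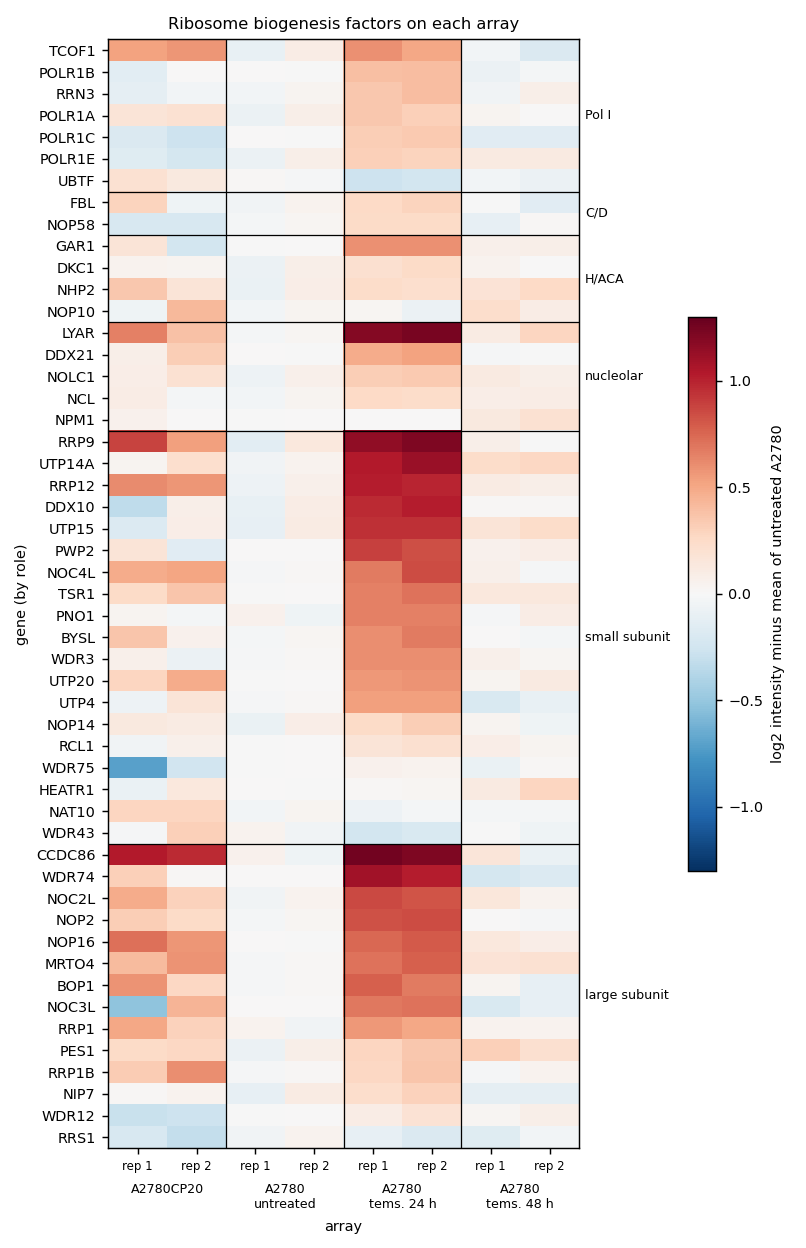
Log2 intensity of each of the 51 members (rows, by role) on each of the 8 arrays (columns), minus that gene's mean in untreated A2780. The arrays labelled 24 h are red for most members, with a median of 0.485 on replicate 1 and 0.5 on replicate 2, while the 48 h arrays stay near 0, at 0.04 and 0.025.

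The comparison of the arrays labelled 24 h with untreated A2780 carries that doubt about the label. Most members were higher on them: 32 of 51 rose and 0 fell (62.7% higher). Of all genes tested, 14.9% were higher and 15.3% lower (30.1% called), and among the 4871 genes at least as bright as the dimmest member, a group formed after the data were seen, 22.3% were higher. The median difference was 0.51 over the members and 0.01 over all genes. Of the 32 rises, 6 were at least 2-fold, and 24 were called under all 17 processing alternatives tried. The 19 members that did not pass ranged between -0.26 and 0.70.

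The gene with the largest rise was CCDC86, which encodes a nucleolar coiled-coil protein. It measured 9.96 and 9.92 on the arrays labelled 24 h, against 8.76 and 8.65 in untreated A2780. Both arrays of the first pair lay above both of the second, and the difference was 1.24 ± 0.11 (2.35-fold, adjusted p = 4.69e-05 in limma). MYC itself went the other way, with 10.55 and 10.56 on the arrays labelled 24 h and 12.00 and 11.94 in untreated A2780, a called difference of -1.42 ± 0.13 (limma adjusted p = 7.8e-05). MTOR (-0.18 ± 0.10) and RPS6KB1, which encodes the S6 kinase that mTORC1 activates (-0.22 ± 0.11), did not pass.

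Among the 7 RNA polymerase I genes, 6 rose and 1 did not pass. TCOF1, the Treacher Collins protein gene that couples ribosomal RNA transcription to processing, had 9.82 and 9.73 on the arrays labelled 24 h, against 9.13 and 9.32 in untreated A2780. It rose by 0.55 ± 0.10. The catalytic subunit genes POLR1A and POLR1B moved less. POLR1A had 10.44 and 10.40 against 10.01 and 10.17 in untreated cells, at 0.33 ± 0.09. POLR1B had 10.90 and 10.91 against 10.52 and 10.50 in untreated cells, at 0.40 ± 0.09. The subunit genes POLR1C (0.33 ± 0.09) and POLR1E (0.30 ± 0.09) rose as well. RRN3 rose by 0.38 ± 0.09, but RefSeq names 4 pseudogenes of it and its probes are uncertain. UBTF, which encodes the upstream binding factor of ribosomal DNA, was the exception in sign, with 10.49 and 10.52 on the arrays labelled 24 h and 10.78 and 10.74 in untreated A2780. Its groups did not overlap, yet the difference of -0.26 ± 0.09 missed the threshold (limma adjusted p = 0.0543).

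In the snoRNP cores 1 of the 6 measured genes rose. Neither measured box C/D gene was called. FBL, the fibrillarin methyltransferase gene, had 11.93 and 11.96 on the arrays labelled 24 h, against 11.62 and 11.72 in untreated A2780 (0.28 ± 0.13, limma adjusted p = 0.144). NOP58, a scaffold of the same particle, had 12.19 on both arrays labelled 24 h, against 11.92 and 11.97 (0.25 ± 0.09, limma adjusted p = 0.0699). For both genes the groups did not overlap, which adds nothing to these values, since the share of all genes free of overlap was not counted. Of the 4 box H/ACA genes only GAR1 was called, with 10.04 on both arrays labelled 24 h, against 9.44 and 9.46 in untreated A2780. It rose by 0.59 ± 0.13. DKC1, the pseudouridine synthase gene (0.23 ± 0.09), and NHP2 (0.23 ± 0.11) did not pass. RefSeq names 2 pseudogenes of NHP2, so its probes are uncertain, and its other probe set lay at 0.405. NOP10 had 10.92 and 10.82 against 10.86 and 10.93 in untreated cells, and its groups overlapped.

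Of the 5 multifunctional nucleolar proteins 3 rose. LYAR, which encodes a nucleolar zinc finger protein, had 10.70 and 10.74 on the arrays labelled 24 h and 9.48 and 9.54 in untreated A2780. The rise was 1.21 ± 0.11 (2.31-fold, limma adjusted p = 8.18e-05). The RNA helicase gene DDX21 (0.51 ± 0.10) and NOLC1, a snoRNP chaperone gene (0.34 ± 0.09), rose too. The abundant nucleolar chaperone gene NPM1 had 13.62 on both arrays labelled 24 h, against 13.60 and 13.62 (0.01 ± 0.09), and nucleolin, NCL, was at 0.25 ± 0.09 without a call. RefSeq names 50 pseudogenes of NPM1, so its probes are uncertain. The same doubt holds for the members NCL, DDX10, PES1 and NOC2L, with 2 named pseudogenes each, and WDR12 and NIP7, with 3 each. FBL, NOLC1 and LYAR have 1 each.

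In the small subunit role 13 of 19 members rose. RRP9, a protein of the U3 snoRNP, measured 10.42 and 10.48 on the arrays labelled 24 h, against 9.13 and 9.40 in untreated A2780 (1.19 ± 0.14, 2.27-fold). UTP14A, which encodes a processome component, measured 10.74 and 10.83 against 9.66 and 9.75 in untreated cells (1.08 ± 0.10). RRP12, needed for export of pre-ribosomes in yeast, measured 9.71 and 9.68 against 8.62 and 8.75 in untreated cells (1.01 ± 0.09). Each of these 3 genes was at least 2-fold higher, with no overlap between the groups, which their choice required. The helicase gene DDX10 had 10.56 and 10.61 against 9.49 and 9.69 in untreated cells (1.00 ± 0.14). UTP15 had 10.17 on both arrays labelled 24 h, against 9.12 and 9.33 (0.95 ± 0.12). PWP2, another processome gene, had 10.65 and 10.60 against 9.76 on both untreated arrays (0.87 ± 0.11). These, too, did not overlap, by the same choice. UTP15 belongs to the early-binding processome complex that is linked to ribosomal RNA transcription, and so do UTP4 (0.54 ± 0.10), WDR75 (0.05 ± 0.14), WDR43 (-0.22 ± 0.12) and HEATR1. HEATR1 had 11.13 and 11.14 on the arrays labelled 24 h and 11.12 and 11.11 in untreated cells (0.02 ± 0.11). Only UTP15 and UTP4 of these 5 were called. The other members that rose lay between 0.57 and 0.77. They were TSR1, PNO1 and BYSL, which act late in small subunit maturation, and the processome genes NOC4L, WDR3 and UTP20. NOP14, a processome protein (0.29 ± 0.10), RCL1 (0.19 ± 0.09) and the RNA acetyltransferase gene NAT10 (-0.05 ± 0.09) did not pass.

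In large subunit assembly 9 of 14 members rose. WDR74, whose nucleolar protein works with the ATPase NVL, had 11.72 and 11.65 on the arrays labelled 24 h, against 10.63 on both untreated arrays, a difference of 1.06 ± 0.11 (2.08-fold). NOP2, an RNA methyltransferase gene, rose by 0.84 ± 0.09, NOP16 by 0.78 ± 0.09 and MRTO4 by 0.75 ± 0.09. The partners PES1, BOP1 and WDR12, whose proteins form the PeBoW complex, gave unequal values. BOP1 measured 10.39 and 10.29 against 9.59 and 9.63 in untreated cells (0.73 ± 0.12) and was called. PES1 measured 10.54 and 10.61 against 10.18 and 10.34 in untreated cells (0.32 ± 0.10, limma adjusted p = 0.0374) and was called under 10 of 17 alternatives. WDR12 measured 11.30 and 11.39 against 11.19 and 11.21 in untreated cells (0.15 ± 0.09) and was not called. All 3 pairs of groups were free of overlap, but so were those of HEATR1 at 0.02 ± 0.11, so this adds nothing to the calls.

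The NOC proteins act in pre-ribosome transport in yeast. NOC2L had 11.66 and 11.62 on the arrays labelled 24 h, against 10.75 and 10.85 in untreated A2780 (0.84 ± 0.10). NOC4L had 9.23 and 9.40 against 8.53 and 8.57 in untreated cells (0.77 ± 0.10). NOC3L had 9.84 and 9.86 against 9.15 on both untreated arrays, yet its standard error of 0.25 left it uncalled (0.70, limma adjusted p = 0.0657). That error comes from the shared estimate of the spread, since NOC3L measured 8.63 and 9.59 on the A2780CP20 arrays. RRP1 and its paralog RRP1B, both on chromosome 21, had unlike calls. RRP1 had 9.86 and 9.80 against 9.35 and 9.25 in untreated cells (0.53 ± 0.10). RRP1B had 10.35 and 10.45 against 10.07 and 10.10 in untreated cells (0.32 ± 0.11, limma adjusted p = 0.061). RRS1 measured -0.15 ± 0.10 and NIP7 0.27 ± 0.10, neither called.

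**Figure D2:**
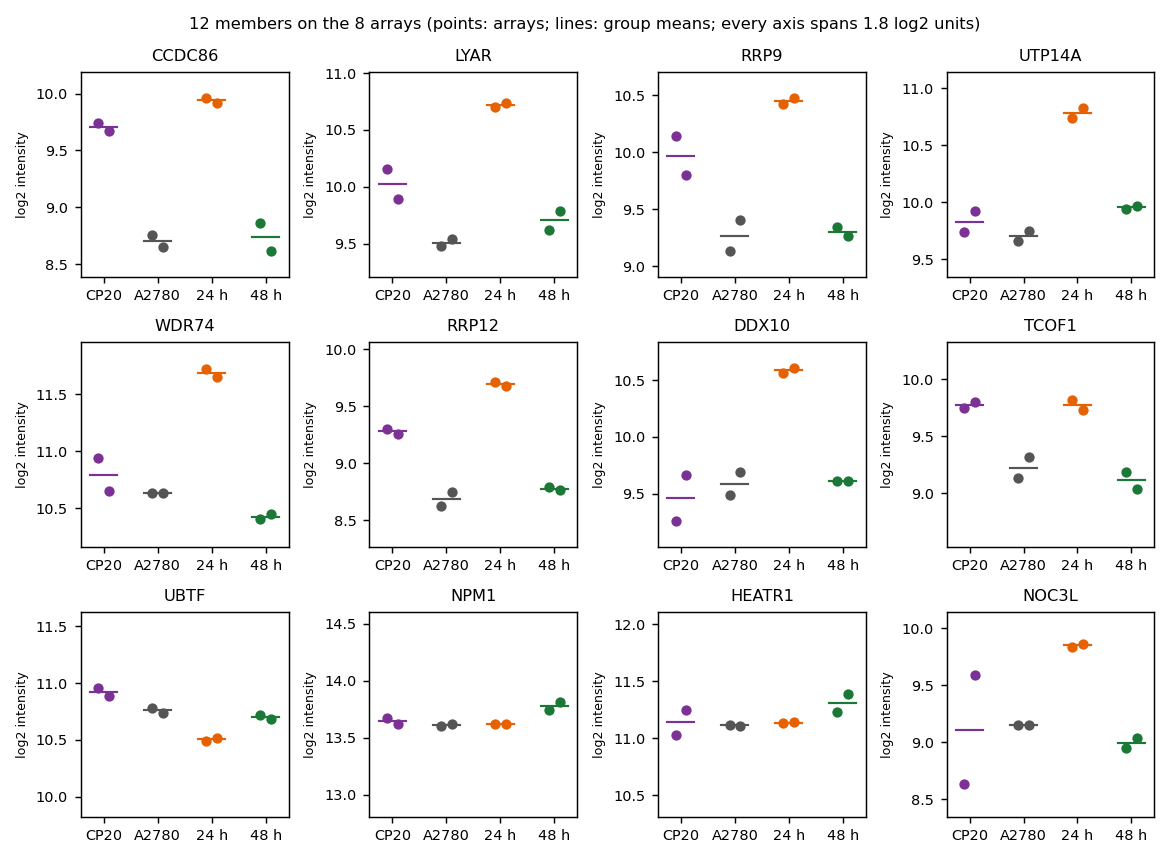
Log2 intensity of 12 members on each array (points) with group means (lines), for A2780CP20, untreated A2780 and A2780 with temsirolimus for 24 h and 48 h; every vertical axis spans 1.8 log2 units. In the first 7 panels both arrays labelled 24 h lie above the other 6 arrays. For NOC3L the 2 A2780CP20 arrays lie at 8.63 and 9.59.

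The E-box did not separate members by their call at 24 h. It lay in 11 of 27 windows of members that rose (40.7%) and in 7 of 16 of those that did not pass (43.8%). The ETS core lay in 17 of 27 (63.0%) and 5 of 16 (31.2%). These shares are a description of few promoters and carry no test.

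A list of 98 other genes of the pathway, of which 93 were measured, was read the same way. It, too, was chosen with earlier results of these data known. On the arrays labelled 24 h 46 rose (49.5%) and 6 fell, against 14.9% and 15.3% of all genes, with a median of 0.31. Other small subunit genes had 19 higher and 0 lower of 32, other large subunit genes 18 and 3 of 40, other RNA polymerase I genes 4 and 2 of 9, and exosome subunits, which trim ribosomal RNA, 5 and 1 of 12. The largest rises were in RPF2, a large subunit assembly gene (1.00 ± 0.12), LSG1, a GTPase gene of late large subunit maturation (0.94 ± 0.08), ZNF622 (0.90 ± 0.10) and TSR2 (0.90 ± 0.15). RPF2 had 2 probe sets, and only the value of the brighter is given. The largest falls were in NOP53 (-0.84 ± 0.11), the exosome nuclease gene DIS3 (-0.76 ± 0.09), TAF1B, part of the RNA polymerase I selectivity factor (-0.61 ± 0.10), and NVL (-0.42 ± 0.09).

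A second question was how the subline A2780CP20 differs from its parent. Fewer members were called: 14 of 51 rose and 1 fell (27.5% higher). Of all genes tested, 6.37% were higher and 12.0% lower (18.4% called), and of the 4871 genes as bright as the dimmest member, 9.09% were higher and 20.2% lower. The median difference was 0.14 over the members and 0.03 over all genes. By role, 7 of 14 large subunit members rose, 5 of 19 small subunit members rose and 1 fell, and TCOF1 and LYAR were the only others called; none of the 6 snoRNP core genes passed.

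CCDC86 again had the largest rise, with 9.74 and 9.67 on the A2780CP20 arrays, against 8.76 and 8.65 in untreated A2780 (1.00 ± 0.11, 2.0-fold, limma adjusted p = 0.00167). RRP9 measured 10.14 and 9.80 against 9.13 and 9.40 in A2780 (0.71 ± 0.14). NOP16, a large subunit factor, measured 9.28 and 9.13 against 8.57 and 8.55 in A2780 (0.65 ± 0.09). RRP12 measured 9.30 and 9.26 against 8.62 and 8.75 in A2780 (0.60 ± 0.09). In each of these genes both A2780CP20 arrays lay above both A2780 arrays, which the choice of genes required. Only CCDC86, NOP16 and RRP12 were called under all 18 alternatives.

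TCOF1 had 9.75 and 9.80 in A2780CP20, against 9.13 and 9.32 in A2780 (0.55 ± 0.10). LYAR had 10.16 and 9.89 against 9.48 and 9.54 in A2780 (0.52 ± 0.11). NOC4L had 9.03 and 9.06 against 8.53 and 8.57 in A2780 (0.50 ± 0.10). MRTO4, whose product resembles a ribosomal stalk protein, had 10.46 and 10.63 against 10.03 and 10.07 in A2780 (0.50 ± 0.09). None of these groups overlapped, which the choice of genes again required. RRP1B had 10.42 and 10.69 against 10.07 and 10.10 in A2780 (0.47 ± 0.11), and BOP1 had 10.19 and 9.88 against 9.59 and 9.63 in A2780 (0.43 ± 0.12). RRP1 (0.40 ± 0.10), NOC2L (0.39 ± 0.10), UTP20 (0.38 ± 0.10) and TSR1 (0.31 ± 0.09) completed the rises, with limma adjusted p between 0.0271 and 0.0453. Each of these 4, like BOP1, was called under 8 of 18 alternatives.

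WDR75 was the member that fell, with 10.93 and 11.39 in A2780CP20, against 11.63 and 11.64 in A2780 (-0.48 ± 0.14, limma adjusted p = 0.0495). Its arrays differed by 0.46 within A2780CP20, and it was called under 6 of 18 alternatives. In the PeBoW complex PES1 (0.26 ± 0.10) and WDR12 (-0.28 ± 0.09) did not pass. POLR1A was at 0.19 ± 0.09 and POLR1B at -0.07 ± 0.09, NOP58 at -0.21 ± 0.09 and NOC3L at -0.04 ± 0.25, none called. MYC measured 11.43 and 11.85 in A2780CP20 and 12.00 and 11.94 in A2780 (-0.33 ± 0.13, limma adjusted p = 0.123).

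Of the 93 other pathway genes, 16 rose (17.2%) and 10 fell in A2780CP20, against 6.37% and 12.0% of all genes. The largest rises were in RRP36 (0.74 ± 0.09), NOL6 (0.74 ± 0.09) and the helicase gene DHX37 (0.71 ± 0.10), all of the small subunit, and in PELP1 (0.52 ± 0.09). AFG2A (-0.69 ± 0.11), TAF1A (-0.56 ± 0.11), RSL24D1 (-0.55 ± 0.13) and TAF1B (-0.51 ± 0.10) had the largest falls. How many members were called varied with the arrays used. There were 9 without both arrays labelled 24 h, or without any one of the 24 h or 48 h arrays, 3 without A2780 replicate 1, 5 without A2780 replicate 2 and 3 when only the groups compared were fitted. All calls in these fits were rises. The share of all genes called fell in them too. Without A2780 replicate 1 it was 5.88% of members and 6.55% of all genes, of which 1.53% were higher. Without A2780 replicate 2 it was 9.8% of members and 5.29% of all genes (1.57% higher), and with only the groups compared 5.88% of members and 5.55% of all genes (1.26% higher). Without both arrays labelled 24 h it was 17.6% of members and 13.8% of all genes (4.4% higher). Over both directions, the members' share was thus near that of all genes in the fits with 3 calls.

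**Figure D3:**
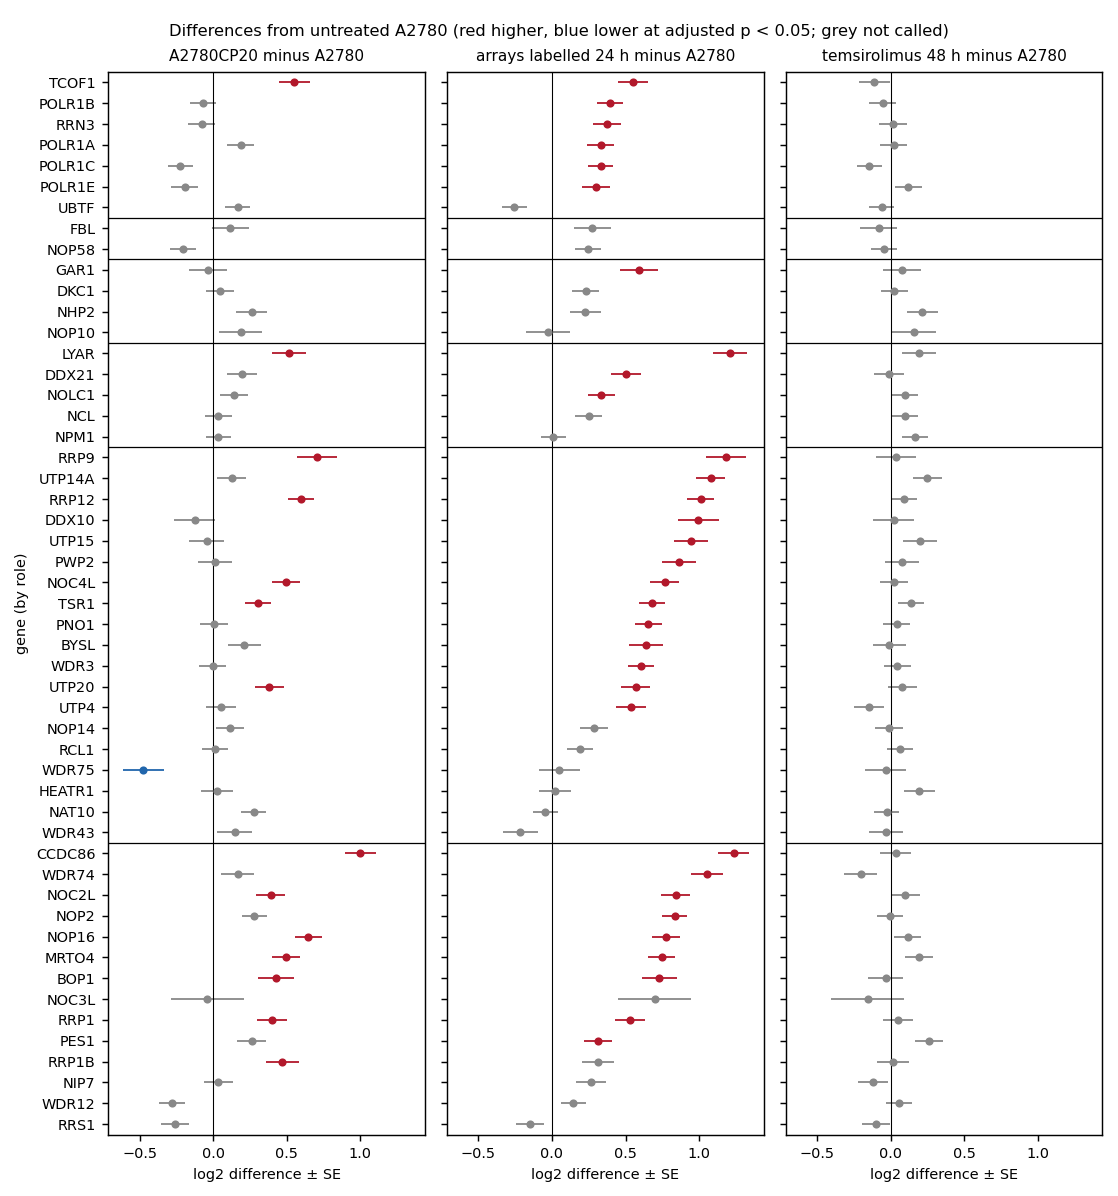
Log2 difference of each member from untreated A2780 (points) with the standard error of the limma fit (bars, n = 2 arrays per group), for A2780CP20, the arrays labelled 24 h and temsirolimus at 48 h. Red points were called higher (14, 32 and 0), the blue point, WDR75, was called lower, and grey points did not pass.

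At 48 h of temsirolimus no member was called. Of 51 members 0 rose and 0 fell in limma, against 0.163% of all genes higher and 0.0163% lower (0.179% called). An unadjusted limma p under 0.05 was found for 2 members, PES1 (0.26 ± 0.10) and UTP14A (0.25 ± 0.10). The same held for 2043 of all 18417 genes. Differences lay between -0.21, in WDR74, and 0.26, with a median of 0.035 over the members and -0.03 over all genes. The genes with the largest differences on the arrays labelled 24 h lay close to untreated cells here. CCDC86 had 8.86 and 8.62 at 48 h, against 8.76 and 8.65 in untreated A2780 (0.035 ± 0.11). RRP9 had 9.34 and 9.26 against 9.13 and 9.40 in untreated cells (0.035 ± 0.14), and RRP12 had 8.79 and 8.76 against 8.62 and 8.75 (0.09 ± 0.09). CCDC86 and RRP9 overlapped between the groups. LYAR, at 9.62 and 9.79 against 9.48 and 9.54 in untreated cells, did not overlap but missed the threshold (0.20 ± 0.11). MYC had 11.92 and 11.86 at 48 h and 12.00 and 11.94 in untreated A2780 (-0.08 ± 0.13). None of the 93 other pathway genes was called either. An unadjusted limma p under 0.05 was found for 7 of them, beside the same 2043 of all 18417 genes. Among these 93, RRP36 had the smallest adjusted p in limma (0.177), at 0.39 ± 0.09.

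**Figure D4:**
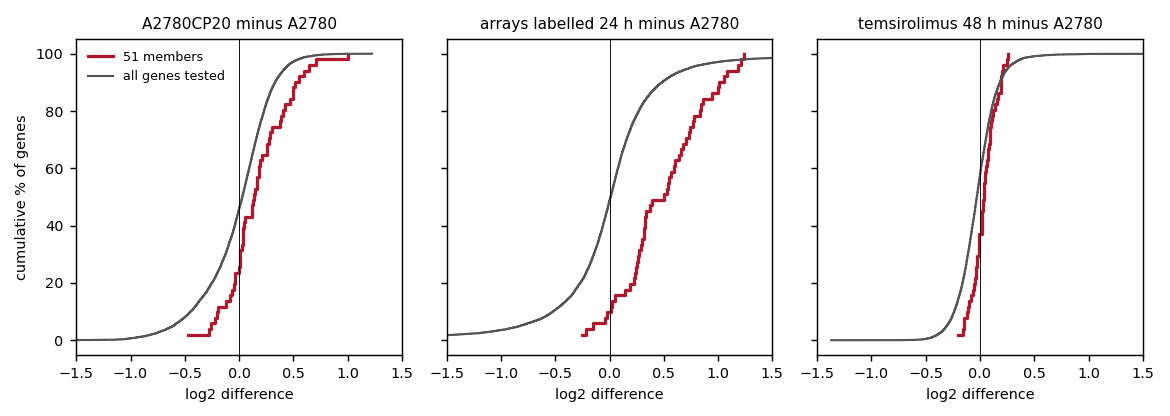
Cumulative share of genes (percent) by log2 difference from untreated A2780, for the 51 members (red) and all 18417 genes tested (grey), in A2780CP20, on the arrays labelled 24 h and at 48 h; the axis ends at 1.5 in each direction. The median of the members lies at 0.14, 0.51 and 0.035, and that of all genes at 0.03, 0.01 and -0.03.

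The direct comparison of 48 h with 24 h tests whether the arrays labelled with those times differ from each other. At 48 h 33 of 51 members were lower and 0 higher than on the arrays labelled 24 h, with a median of -0.48. Of all genes tested, 15.7% were lower and 15.2% higher (31.0% called). Of the 4871 genes at least as bright as the dimmest member, 21.2% were lower and 23.7% higher. By role, 14 of 19 small subunit members, 10 of 14 large subunit members, 5 of 7 RNA polymerase I genes, 2 of 5 multifunctional nucleolar proteins, 1 of 2 box C/D genes and 1 of 4 box H/ACA genes were lower. WDR74 differed most, with 10.40 and 10.45 at 48 h and 11.72 and 11.65 on the arrays labelled 24 h (-1.26 ± 0.11, limma adjusted p = 5.05e-05). NPM1, HEATR1, NAT10, NHP2, PES1 and WDR12 were among the 18 members that did not pass.

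The arrays labelled 24 h were also set against A2780CP20 directly. Of 51 members, 25 were higher on the arrays labelled 24 h and 3 lower, with a median of 0.31. Of all genes tested, 17.8% were higher and 15.9% lower (33.7% called). Of the 4871 genes at least as bright as the dimmest member, 28.3% were higher and 18.9% lower. Over the processing alternatives tried, which include leaving out each array, the median of the members in this comparison lay between 0.236 and 0.345. DDX10 differed most, with 10.56 and 10.61 on the arrays labelled 24 h and 9.26 and 9.67 in A2780CP20 (1.12 ± 0.14, limma adjusted p = 0.000401). UTP15 (0.99 ± 0.12), UTP14A (0.96 ± 0.10), WDR74 (0.89 ± 0.11) and PWP2 (0.86 ± 0.11) followed, and none of these 5 had been called in A2780CP20 against A2780. The 3 lower genes were UBTF (-0.42 ± 0.09), WDR43 (-0.36 ± 0.12) and NAT10 (-0.32 ± 0.09). TCOF1 (0.00 ± 0.10), NOP16 (0.13 ± 0.09) and CCDC86 (0.24 ± 0.11) did not differ by an amount that passed the test.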

How the data were processed

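Total RNA of cultured cells was hybridized to Affymetrix Human Gene 1.0 ST arrays, 1 sample per array. The authors deposited a value for each of 33297 probe sets and 8 arrays; the deposited values run from 1.8 to 14.99 with 2 decimals, and their log2 scale was read from that range. The submitters' processing notes name Partek, without a version; no source used here gives the background correction, normalization or probe summary. Of the probe sets, 19460 had 1 symbol, 1754 several and 12083 were unnamed here. Symbols were updated by gene number through a RefSeq table (18389 of 18417 genes matched). Groups came from the sample titles.

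The 8 arrays and 18417 genes were modelled by group means with limma 3.58.1 in R 4.3.3 (4 residual and 4.48 prior degrees of freedom), with two-sided p-values adjusted by Benjamini-Hochberg across all genes. The model was also run on simulated data with independent noise, which does not show how it performs on these arrays. Promoter letters were searched in Python 3.11.15.

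The members and lists were chosen with earlier results of these data known. Values on every array are given for the up to 10 higher and 5 lower called members with the largest change and no overlap in each comparison with untreated A2780, for the largest and smallest change of each role at 24 h, and for fixed partner sets; up to 4 other pathway genes per direction are named. Genes outside this rule were chosen after their values were seen. The number of arrays limits the precision.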

Additional observations from a re-analysis of the deposited data

Results flagged for a closer look

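The arrays labelled 48 h and 24 h of temsirolimus differed, by the test of the difference itself (48 h minus 24 h in limma, n = 2 arrays each). This held for 33 of 51 members, all lower at 48 h, against 31.0% of all genes in either direction. The 10 with the largest differences were WDR74 (-1.26), CCDC86 (-1.20), RRP9 (-1.15), LYAR (-1.015), DDX10 (-0.975), RRP12 (-0.92), NOC3L (-0.855), NOP2 (-0.84), UTP14A (-0.83) and PWP2 (-0.79). The arrays labelled 24 h stood apart from the other 6 arrays over all genes, their label is in doubt, and the part of that in these differences was not tested.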

How the results depend on the processing

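Counts of called members were recomputed with quantile normalization, median centring, without the dimmest 25% of genes, with the mean of probe sets, over all probe sets, with only the groups compared, with an intensity trend or a robust prior, with a replicate block and without each array; in fits that leave 1 array in a group, that array is assumed to vary like the others. For A2780CP20 versus A2780 the 15 called members became 9 over all probe sets, 3 with only the groups compared and 9 without both arrays labelled 24 h, and lay between 3 and 19 when 1 array was left out. Of all genes, 18.4% were called with all arrays, 11.3%, 5.55% and 13.8% in those 3 settings, and 5.29% to 30.1% without 1 array; with only the groups compared, the members' 5.88% was near the share of all genes. Leaving out 1 array gave 24 to 39 at 24 h (32 with all), 25 to 36 for 48 h versus 24 h (33) and 18 to 31 for 24 h versus A2780CP20 (28). The share of all genes called changed in these fits as well, so the counts alone do not show a change particular to the members. At 48 h versus A2780 the count was 0 in limma under all 18 alternatives. NOC3L reversed for A2780CP20: -0.04 with all arrays and 0.44, called, without A2780CP20 replicate 1, whose value was 8.63; without replicate 2 it was -0.52, also called. The replicate block moved no count by over 1.5 times. For A2780CP20, 24 h and 48 h versus A2780 it gave 15, 34 and 0 called members, and 19.3%, 30.6% and 0.19% of all genes. For 48 h versus 24 h and 24 h versus A2780CP20 it gave 32 and 28 members, and 32% and 34.8% of all genes. Same-numbered arrays correlated in their deviations at 0.00202 to 0.181, so the numbers were not taken to pair the samples. Signal over background is not known for these values.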

Other observations

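Some members carry small nucleolar RNA genes within their own span in RefSeq, where such RNAs are spliced out of introns. There were 6 of them: NOP58, DKC1, NCL, WDR43, TSR1 and UTP20. On the arrays labelled 24 h 2 of these 6 rose, TSR1 and UTP20, with a median of 0.25. Of the other 45, 30 rose, with a median of 0.53. Of all genes tested, 14.9% were higher there, and of the 4871 at least as bright as the dimmest member 22.3%. The split of the members was chosen after the values were seen and carries no test.

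The second probe set of BOP1 gave a larger difference in A2780CP20, with 10.13 and 9.83 against 9.2 and 9.21 in A2780 (0.775, against 0.425 for the probe set used), and a like one on the arrays labelled 24 h (0.74 and 0.73). The second probe set of NHP2 lay at 0.405 at 24 h, against 0.225 for the one used. For NPM1 1 of 4 probe sets lay near 5 on every array, the other 3 above 13.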
